A study of Mus musculus with 9 samples.

Results

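The genes described here are 6 genes of the TREM2 pathway and of the disease-associated program of microglia: Trem2, Tyrobp, Cst7, Clec7a, Gpnmb and Fabp5. They were taken by name, and 5 of the 6 had a row among the 31053 genes counted in each barcode. Clec7a was not analysed here. The study profiled CD11b+ live cells sorted from mouse brain, cerebellum removed and myelin depleted, with 10x Genomics 3′ v3 chemistry in 9 libraries of C57BL/6 mice (C57BL/6J in the study's methods). Ctrl mice were naive and age-matched, and each of the 3 Ctrl libraries held 1 brain. The diet of D0 mice held PLX5622, which inhibits CSF1R, a receptor on which microglia depend, at 1200 mg/kg for 14 days, and D2 mice had the same diet and were then returned to a control diet for 2 days. Each D0 or D2 library pooled 2 brains. All mice were female and 5 months old. The comparisons ask what the microglia that withstood the inhibitor, and those of the first days of repopulation, express relative to untreated microglia.

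TREM2 is a surface receptor of microglia and other macrophages that binds lipids and lipoproteins. It has no signalling motif of its own and signals through TYROBP (also called DAP12), an adaptor whose ITAM motif recruits the kinase SYK. In mouse models of amyloid deposition and neurodegeneration, microglia switch from a homeostatic program, marked by genes such as P2ry12 and Tmem119, to a disease-associated one, and the full switch depends on TREM2. Cst7 (cystatin F, an inhibitor of lysosomal cysteine proteases), Clec7a (the beta-glucan receptor dectin-1), Gpnmb (a lysosomal and surface glycoprotein whose gene is a target of the MITF/TFE family) and Fabp5 (an intracellular carrier of fatty acids) belong to that program or are often reported with it.

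In GENCODE annotation of GRCm38, Trem2 (ENSMUSG00000023992) lies at chr17:48346401-48354147 on the plus strand, Tyrobp (ENSMUSG00000030579) at chr7:30413760-30417585, plus strand, and Cst7 (ENSMUSG00000068129) at chr2:150570415-150578944, plus strand. Clec7a (ENSMUSG00000079293) lies at chr6:129461591-129472779 on the minus strand, and the annotation types it as a polymorphic pseudogene. Gpnmb (ENSMUSG00000029816) lies at chr6:49036546-49070929 and Fabp5 (ENSMUSG00000027533) at chr3:10012548-10016607, both on the plus strand. The other 5 genes are protein coding. Of the 5 measured genes, only Fabp5 had near-identical copies in the annotated transcripts (at least 90% identity over at least 100 bases). These were 5 processed pseudogenes, the closest with 98.3% identity over 409 bases, and none of them had a row of its own, so reads shared with them could not be counted apart.

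The promoters of Trem2, Cst7 and Gpnmb are shown as those of the receptor and of 2 genes of the disease-associated program whose levels are described below. Each is 300 bases, 250 before and 50 after the annotated start, on the plus strand of GRCm38.p6 from RefSeq, at chr17:48346151-48346450, chr2:150570165-150570464 and chr6:49036268-49036567. The 4 motifs searched, on both strands and with no letters shared between their matches, were the core of the PU.1 site (GAGGAA), the E-box (CACGTG) and M-box (CATGTG) that MITF/TFE factors bind, and the AP-1 site (TGACTCA). Capitals mark every match.
Trem2: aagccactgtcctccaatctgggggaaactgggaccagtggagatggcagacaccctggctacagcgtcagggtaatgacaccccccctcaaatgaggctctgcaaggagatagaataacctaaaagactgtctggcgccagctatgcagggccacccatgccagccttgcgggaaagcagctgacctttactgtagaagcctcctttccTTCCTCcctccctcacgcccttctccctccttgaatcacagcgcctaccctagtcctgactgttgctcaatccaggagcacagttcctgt
Cst7: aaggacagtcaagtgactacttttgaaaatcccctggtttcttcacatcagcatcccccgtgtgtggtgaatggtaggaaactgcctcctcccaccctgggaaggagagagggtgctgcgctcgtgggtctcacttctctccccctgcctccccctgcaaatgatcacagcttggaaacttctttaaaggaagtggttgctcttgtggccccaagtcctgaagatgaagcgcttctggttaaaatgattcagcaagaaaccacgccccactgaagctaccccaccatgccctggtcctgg
Gpnmb: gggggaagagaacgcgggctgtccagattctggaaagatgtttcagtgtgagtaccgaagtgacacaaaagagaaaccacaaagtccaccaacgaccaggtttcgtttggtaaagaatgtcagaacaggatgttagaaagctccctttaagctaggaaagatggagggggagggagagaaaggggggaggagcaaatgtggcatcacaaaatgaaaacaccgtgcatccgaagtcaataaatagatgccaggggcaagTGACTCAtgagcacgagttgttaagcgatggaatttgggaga
The Trem2 window held 1 PU.1 match, read on the minus strand. The Gpnmb window held 1 AP-1 match, and the Cst7 window held no match to any of these letters. Among 32851 RefSeq promoters of the same length, 28.3% held the PU.1 letters, 7.15% the E-box, 14.2% the M-box and 5.20% the AP-1 letters. A match is a run of letters, not a known site, and no match says only that these letters are not in this window.

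The 9 libraries held 2875 to 5721 barcodes and 20257894 to 61230741 UMIs (unique molecular identifiers, which count captured transcripts once). After filters, 28655 cells of 8 libraries were kept, with library medians of 4810 to 9243 UMIs per cell, and 2 libraries shared at most 8 barcodes. D2-3, which the study left out, stood apart. In it 37.3% of barcodes exceeded the upper UMI limit and 671 of 712 microglia-like cells were placed in mitotic clusters. It entered no test other than as an alternative. The 21 clusters, drawn without the genes described here and the lists used below, gave 11 classes of cells, 10 of them named from fixed marker lists. Microglia-like cells were 19445 cells outside and 1919 cells inside 2 mitotic clusters, and were summed together per library. Mitotic markers rose in these sums, all 8 of them being called in D0 and in D2, and their summed level ranged over 9.19 to 19.1 CPM (the UMIs of a gene scaled to a fixed total per sum) in Ctrl, against 579.6 to 668.8 CPM in D0 and 810.8 to 956.4 CPM in D2. Cell Ranger 3.0.2 was named in the headers of Ctrl-1 and of every treated library tested, and 3.1.0 in those of Ctrl-2 and Ctrl-3.

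Trem2 in microglia-like cells was lower in every treated library than in any Ctrl library as a share of all UMIs, but was called in neither comparison. Its level was 2680, 2894 and 2960 CPM in Ctrl-1 to Ctrl-3, 2455, 2383 and 2086 CPM in D0-1 to D0-3, and 1961 and 2431 CPM in D2-1 and D2-2. After TMM scaling, which sets libraries against each other by their typical gene rather than their total, the groups overlapped: 2379, 2789 and 2809 in Ctrl, 2539, 2665 and 2242 in D0, 1935 and 2452 in D2. The log2 fold change was -0.10 ± 0.13 (SE, 95% interval -0.38 to 0.18) in D0 and -0.28 ± 0.14 (-0.60 to 0.04) in D2, with adjusted p of 0.620 and 0.215 (edgeR quasi-likelihood test, Benjamini-Hochberg over 12361 genes, 8 libraries). Scaled by total UMIs, a choice added after the data had been seen, Trem2 stood at -0.30 in D0 (adjusted p = 0.0644) and -0.37 in D2 (0.0643), while the median of all genes moved to -0.26 and -0.12. Mitotic clusters held less Trem2, 1471 ± 114 CPM (SD, n = 5 libraries) against 2590 ± 306 CPM in the other microglia-like cells (8 libraries). The 5 libraries were all of D0 or D2, while the 8 include Ctrl, so the 2 means differ in condition as well. Without the mitotic clusters, the log2 fold of Trem2 was 0.04 in D0 and -0.15 in D2.

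**Figure D1:**
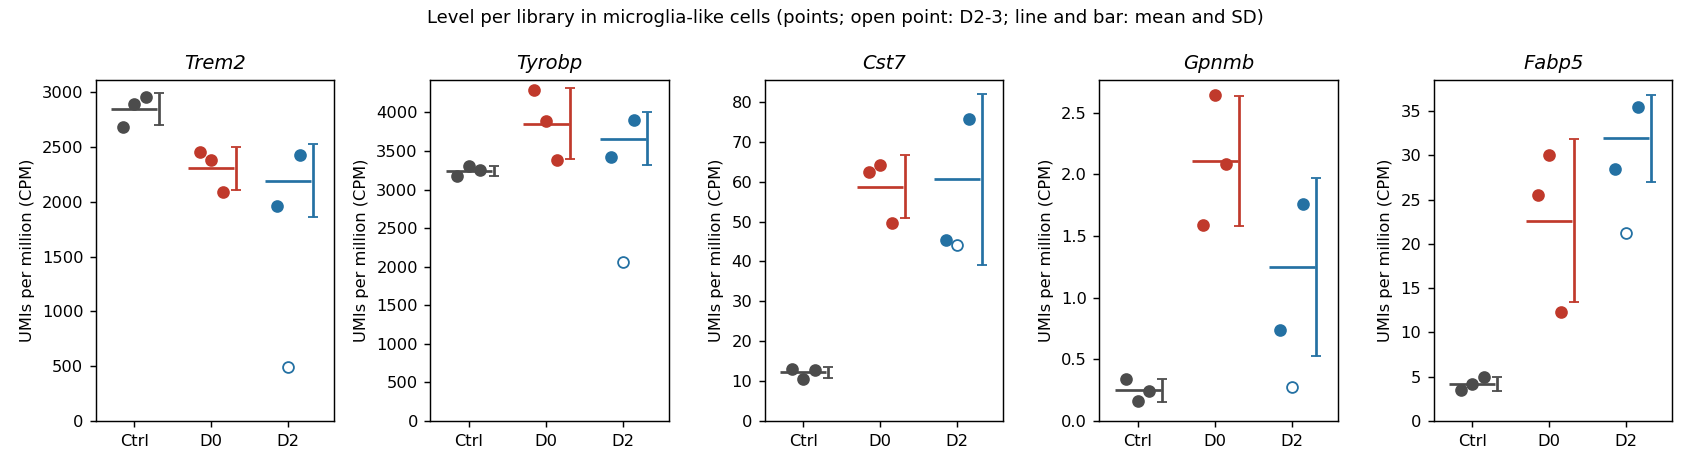
Level of each measured gene in microglia-like cells (vertical axis, CPM) by condition; each filled point is 1 library, the line and bar are the mean and SD, and the open point is D2-3, which is in neither. Cst7, Gpnmb and Fabp5 stood higher in every D0 and D2 library tested than in any Ctrl library, Tyrobp did so by a smaller margin, and Trem2 stood lower before TMM scaling.

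Tyrobp, the adaptor, rose in D0 and was not called in D2. It stood at 3175, 3303 and 3257 CPM in Ctrl, 4290, 3894 and 3381 CPM in D0, and 3417 and 3904 CPM in D2. All treated libraries tested lay above all Ctrl libraries, with D0-3 and D2-1 nearest to them. The log2 fold change was 0.45 ± 0.11 in D0 (1.37-fold, adjusted p = 0.0243, edgeR) and 0.27 ± 0.13 in D2 (adjusted p = 0.181), and the 2 treated groups did not differ by the test (-0.18, 95% interval -0.47 to 0.11, adjusted p = 0.698). The D0 call did not hold in 9 of 29 alternatives. It was lost without Ctrl-1 (adjusted p = 0.0507), Ctrl-2 (0.0556), Ctrl-3 (0.0749), D0-1 (0.0589) or D0-2 (0.0934), with a term for the Cell Ranger version (0.56, 0.0576), with scaling by total UMIs (0.25, 0.0988), with D2-3 included (0.45, 0.344) and with D2-3 included but mitotic clusters left out (0.53, 0.241).

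Cst7, the inhibitor of lysosomal proteases, rose in both treated groups. Its level was 13.1, 10.6 and 12.9 CPM in Ctrl, 62.6, 64.3 and 49.6 CPM in D0, and 45.5 and 75.8 CPM in D2. The lowest treated library, D2-1, lay far above the highest Ctrl library, and D0 and D2 overlapped. The log2 fold change was 2.48 ± 0.21 in D0 (5.56-fold, 95% interval of the log2 value 2.01 to 2.94, adjusted p = 4.084e-05) and 2.41 ± 0.22 in D2 (5.31-fold, adjusted p = 8.651e-05, edgeR). Between D2 and D0 it was -0.07 (95% interval -0.56 to 0.42, adjusted p = 0.925).

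Fabp5, the fatty acid carrier, rose as well. It stood at 3.44, 4.17 and 4.98 CPM in Ctrl, 25.5, 30.1 and 12.3 CPM in D0, and 28.5 and 35.4 CPM in D2. D0-3 was the lowest treated library and still lay above every Ctrl library. The log2 fold change was 2.64 ± 0.33 in D0 (6.25-fold, adjusted p = 0.000479) and 3.02 ± 0.35 in D2 (8.11-fold, adjusted p = 0.00038), and D2 against D0 gave 0.38 (95% interval -0.36 to 1.12, adjusted p = 0.736, edgeR).

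Gpnmb, the MITF/TFE target, was scarce everywhere and rose from near 0. It had 9, 3 and 6 UMIs in the microglia-like sums of Ctrl-1 to Ctrl-3, then 29, 91 and 39 with PLX5622 and 14 and 18 after the return to control diet. As levels these were 0.340, 0.160 and 0.241 CPM in Ctrl, 1.59, 2.64 and 2.08 CPM in D0, and 0.739 and 1.76 CPM in D2. The groups did not overlap, although D2-1 lay close to Ctrl. The log2 fold change was 3.26 ± 0.44 in D0 (9.57-fold, adjusted p = 0.00087) and 2.29 ± 0.53 in D2 (4.91-fold, adjusted p = 0.0161), with -0.96 (95% interval -1.97 to 0.04, adjusted p = 0.671) between D2 and D0. Gpnmb could pass the filter on low counts only through the libraries where it was high. Its D2 call was lost without D2-2 (log2 fold 1.61, adjusted p = 0.136).

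Leaving Gpnmb aside, 3 of the other 4 measured genes passed the test upward in D0, where 12.1% of the 12361 genes tested did so and 6.9% passed downward (19% in all). In D2 these were 2 of 4, against 10.1% upward and 6.89% downward (17% in all). Tyrobp, Cst7 and Fabp5 did not overlap between Ctrl and D0 or D2 after TMM scaling, as was the case for 38% of all genes in D0 and 47.9% in D2. The median log2 fold over all genes was -0.05 in D0 and -0.03 in D2. Between D2 and D0 no gene was called among the 12361 (0%), with 862 at an unadjusted p under 0.05 and 24 called by DESeq2, and none of the 5 genes passed in any alternative. D0 and D2 were compared with the same Ctrl libraries, so their folds are not independent of each other. Markers of other cells in the same sums moved unequally. The summed level of 9 neutrophil markers ranged over 211.2 to 282.96 CPM in Ctrl, against 195.1 to 401.9 with PLX5622 and 279.7 to 449.4 in D2. Of 8 tested, 6 were called higher in D0 (median log2 fold 3.14) and 4 in D2 (2.98). Part of the sum was Csf3r, found in the microglia-like cells of every tested library, so the sum need not follow the other neutrophil markers. S100a9, among them, had 3.2, 16.6 and 3.0 CPM in Ctrl and 32.7, 105 and 32.6 in D0. Of monocyte markers, 5 of 7 tested were called higher in D0 (1 lower, median log2 fold 3.22) and 5 of 7 in D2 (2.86), and their sum ranged over 59.4 to 172.5 CPM in Ctrl, against 109.2 to 360.8 with PLX5622 and 152.5 to 157.3 in D2. Most of that sum was Nr4a1, whereas S100a4 was at 0.983 to 1.61 CPM in Ctrl and 8.87 to 11.7 in D0. In the same order, lymphoid markers summed to 35.8 to 38.9, 35.2 to 38.6 and 36.3 to 45.1, with 3 of the 12 at 0 in all 8 libraries. Most of the lymphoid sum was Cd79b in every library, so it mainly follows that gene and cannot show whether the other lymphoid markers moved. Of border-associated macrophage markers, 4 of 8 tested fell in D0, and of dendritic cell markers 2 of 5 rose. The part of these cells in the rises was not tested.

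**Figure D2:**
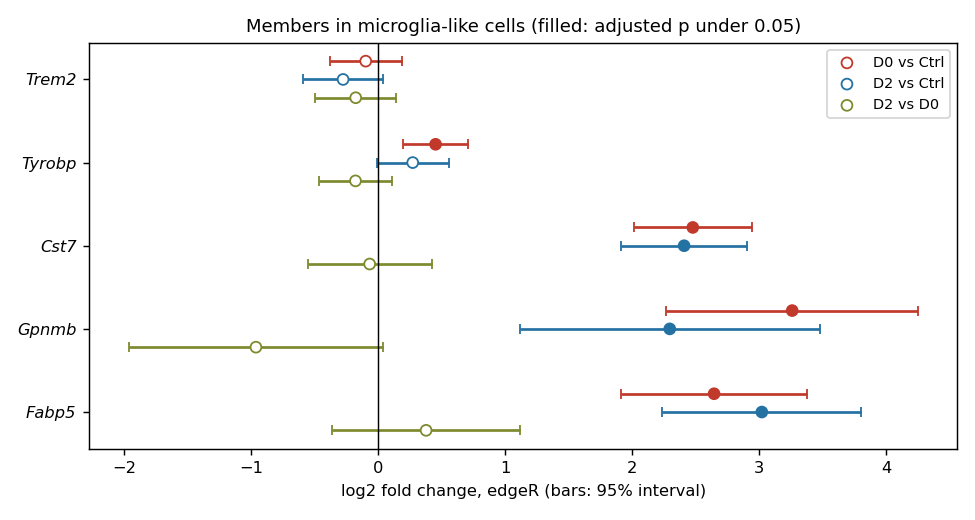
Log2 fold change of the 5 measured genes in microglia-like cells (horizontal axis; edgeR, bars show 95% intervals) in D0 vs Ctrl, D2 vs Ctrl and D2 vs D0; filled points have an adjusted p under 0.05. Cst7 and Fabp5 lay above 0 in both treated groups, Tyrobp was called in D0 alone, Trem2 in neither, and all intervals of D2 vs D0 included 0. Gpnmb also lay above 0 in both. It could pass the filter on low counts only through the libraries where it was high, and its UMIs came from few cells.

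Cst7 and Fabp5 were also found in more cells. With every cell thinned to 2000 UMIs, Cst7 was found in 1.89%, 1.95% and 2.39% of microglia-like cells in Ctrl, 8.51%, 9.43% and 8.03% in D0, and 7.53% and 10.4% in D2. The shares in D0 (8.65% ± 0.710, SD, n = 3) and D2 (8.98%, n = 2) lay apart from those of Ctrl (2.08% ± 0.275, n = 3). Fabp5 was found in 0.409%, 0.856% and 0.819% in Ctrl, 2.74%, 3.62% and 1.59% in D0, and 4.07% and 4.18% in D2. Gpnmb was found in 1, 0 and 0 cells in Ctrl, then 4, 7 and 3 in D0, then 3 and 4 in D2, of 1267 to 3533 cells used per library, or in at most 0.316%. Trem2 and Tyrobp were found in 96.4% to 99.5% and in 99.2% to 99.9% of cells of these 8 libraries. For all but Tyrobp in D0 (p = 0.3), the two-sided exact permutation test over libraries gave p = 0.1, the smallest these designs allow, and 0.111 or more after Benjamini-Hochberg adjustment over 10 tests. Without thinning, Cst7 was found in 7.23%, 25.2% and 21.8% of cells on average.

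UMIs in cells that should lack a gene gave a background that differed by gene. Whether it was free RNA in the droplets or came from doublets, which were not removed, was not tested. In endothelial-like cells, which should lack Trem2, Tyrobp and Cst7, Trem2 was found in 12.3% of 674 cells at 2000 UMIs, but Cst7 and Fabp5 in 0.445% each and Gpnmb in 0 of 674, which allows a share of up to 0.445%. These cells were pooled over the 8 libraries, and for Fabp5 the endothelial-like cells of the Ctrl libraries held no UMI, while 9 of all 14 came from D2-2. The Ctrl share of Cst7 in microglia-like cells was thus above this background, whereas the shares of Gpnmb lay under its limit in every library, where a share cannot be told apart from background. These intervals and limits cover counting error only. Median depths before thinning were 3648 UMIs in endothelial-like and 6971 in microglia-like cells.

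**Figure D3:**
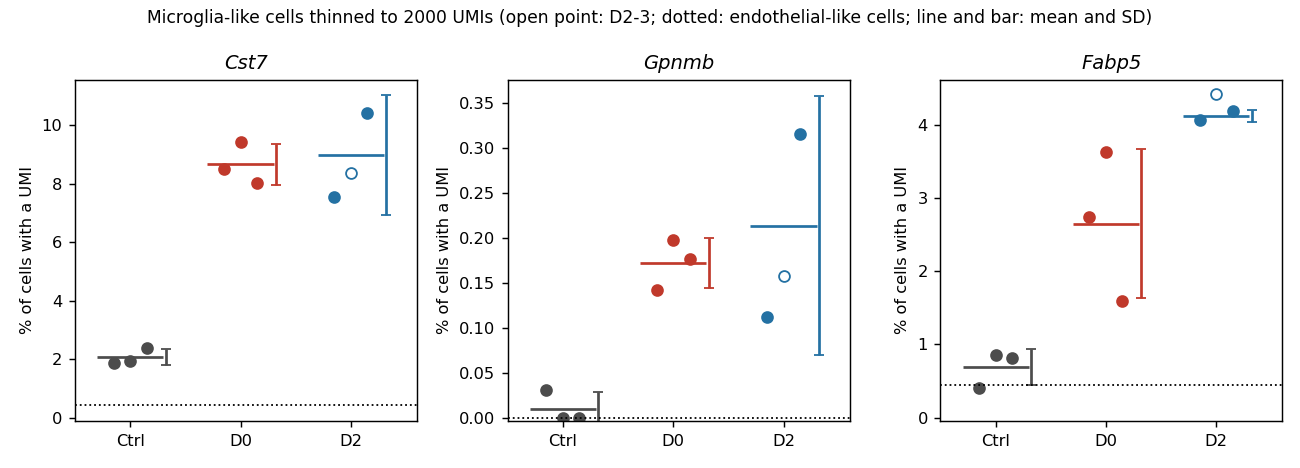
Share of microglia-like cells with at least 1 UMI of Cst7, Gpnmb and Fabp5 (vertical axis, percent) after thinning each cell to 2000 UMIs; filled points are libraries, lines and bars are mean and SD, the open point is D2-3 and the dotted line is the share in endothelial-like cells. All D0 and D2 libraries lay above the Ctrl libraries for each gene.

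Most UMIs of Gpnmb came from few cells. Of 21364 microglia-like cells of the 8 libraries, 23 had at least 3 UMIs of Gpnmb and together held 172 of its UMIs, against 37 in all other microglia-like cells. They were 1 cell in each Ctrl library, 2, 9 and 4 in the D0 libraries and 2 and 3 in the D2 libraries. Since most came from treated libraries, they were set beside the other microglia-like cells of D0 alone, where 15 of the 23 lay. Genes of the same program were high in the summed UMIs of those 15 cells: Cst7 was at 386 CPM against 59.1 CPM in the others, Fabp5 at 437 against 23.1, Lgals3 (galectin-3, also called MAC2) at 508 against 30.02 and Spp1 (osteopontin) at 635 against 23.2. Not every cell held them: of all 23 cells, 14 had a UMI of Cst7, 11 of Fabp5, 11 of Lgals3 and 6 of Spp1. P2ry12, the homeostatic purinergic receptor, was at 518 against 1092 CPM. Mrc1, a marker of border macrophages, had no UMI in any of the 23 cells, but it was at only 7.76 CPM in the other microglia-like cells. In D0 it was also low in the cluster led by Pf4, Ms4a7 and Mrc1 that is described below. Its absence therefore cannot show what kind of cell these were. These cells were also deep, with a median of 15045 UMIs against 7827 in D0, and they were picked by a gene of the same libraries, so the values are a description with no test.

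Cst7 and Fabp5 were spread more widely. At least 3 UMIs of Cst7 were found in 642 cells, 21, 11 and 15 in Ctrl, 102, 243 and 94 in D0, and 82 and 74 in D2, and these cells held 3209 of its UMIs, against 3578 in the rest. Within Ctrl, Fabp5 was at 83.1 CPM in these cells against 3.55 in the others, within D0 at 79.7 against 19.7, and within D2 at 117.1 against 25.6. The Ctrl value rests on 46 UMIs, of which 28 lay in 1 cell of Ctrl-1. P2ry12 was at 1729 against 2803 CPM in Ctrl, 823 against 1112 in D0 and 513 against 604 in D2. The gap in P2ry12 was thus narrower in the treated groups. At least 3 UMIs of Fabp5 were found in 222 cells, 1, 4 and 5 in Ctrl, 34, 86 and 21 in D0, and 37 and 34 in D2, and within D0 they held Cst7 at 197.7 against 56.5 CPM and Lgals3 at 329 against 23.9. Both sets of cells were again deep, with medians of 11791 and 11658 UMIs.

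Within the microglia-like clusters, Cst7 and Fabp5 were highest in the cluster led by Tnf, Il1a and Il1b, which encode inflammatory cytokines. Cst7 was at 84.5 ± 54.9 CPM there (mean ± SD, n = 7 libraries) and Fabp5 at 42.9 ± 28.4. The library values of Cst7 in it were 19.4 and 22.9 CPM in Ctrl-2 and Ctrl-3, 175.2, 94.4 and 73.9 in D0, and 81.0 and 124.4 in D2, so the gap between conditions was also found inside this cluster. In each of the 6 other microglia-like clusters outside mitosis, Cst7 had a mean of 26.7 to 45.6 CPM. Trem2 ran the other way, highest at 2983 ± 306 CPM in the cluster led by homeostatic genes such as P2ry12 and P2ry13, at 2142 CPM in the cytokine cluster, and lowest in the 2 mitotic clusters, at 1533 and 1422 CPM. The values of the mitotic clusters come from D0 and D2 libraries only. Clusters were drawn from the same cells, and no cluster was tested against another.

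Levels by class of cell separated the 5 genes. Trem2 was at 2590 ± 306 CPM in microglia-like cells outside mitosis (mean ± SD over 8 libraries), 1471 ± 114 in mitotic ones (D0 and D2 libraries only) and 1455 ± 177 in a cluster led by Pf4, Ms4a7 and Mrc1, the last pair not differing beyond their spread. It was at 335 ± 282 CPM in neutrophil-like, 189 ± 80.0 in monocyte- and dendritic-like, 160 ± 53.5 in endothelial-like, 133 ± 126 in mural-like and 108 ± 159 CPM in lymphoid-like cells, which overlapped. Endothelial- and mural-like cells, which should lack Trem2, give the level of background here. The ependymal- or choroid plexus-like cells of 1 library stood at 412 CPM. Tyrobp was found in all blood-derived classes, at 4799 ± 1290 CPM in neutrophil-like, 3200 ± 377 in lymphoid-like and 2678 ± 352 in monocyte- and dendritic-like cells beside 3659 ± 453 in microglia-like cells outside mitosis, with 247 ± 95.4 in endothelial-like cells. The lymphoid-like cluster was led by Gzma and Nkg7, genes of natural killer and cytotoxic T cells.

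Cst7 was highest in lymphoid-like cells, at 273, 226, 256 and 243 CPM in the 4 libraries with at least 20 of them (Ctrl-2, D0-2, D0-3 and D2-2) and was no higher in the treated libraries. In mitotic microglia-like cells it was at 41.8, 49.98 and 40.1 CPM in D0 and 43.4 and 69.7 in D2, in each library below the cells outside mitosis, which were at 65.3, 67.7 and 52.1 in D0 and 45.9 and 77.5 in D2. Monocyte- and dendritic-like cells held 0 to 9.34 CPM in 7 libraries and 67.1 CPM in Ctrl-2. That value rested on 63 UMIs, 62 of them in 1 cell, so it is not a level of the class. Neutrophil-like cells held 7.07 ± 5.88 CPM and endothelial-like cells 2.88 ± 2.54, or 14 UMIs in 901 cells. Fabp5 was highest outside the myeloid cells, at 757 CPM in the astroglial-like and 219 CPM in the ependymal- or choroid plexus-like cells of D0-3, the 1 library with at least 20 of each. It was at 106 ± 78.0 CPM in monocyte- and dendritic-like and 83.4 ± 34.1 in neutrophil-like cells, means above the 18.0 ± 13.3 of microglia-like cells outside mitosis. Gpnmb had no UMI in endothelial-, mural- or neutrophil-like cells (901, 303 and 1176 cells), and 1.26 ± 1.05 CPM in microglia-like cells outside mitosis. In lymphoid-like cells it averaged 16.1 ± 29.0 CPM (4 libraries). Of its 11 UMIs in that class over the 8 libraries, 9 lay in 1 cell, so this is not a level of the class.

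**Figure D4:**
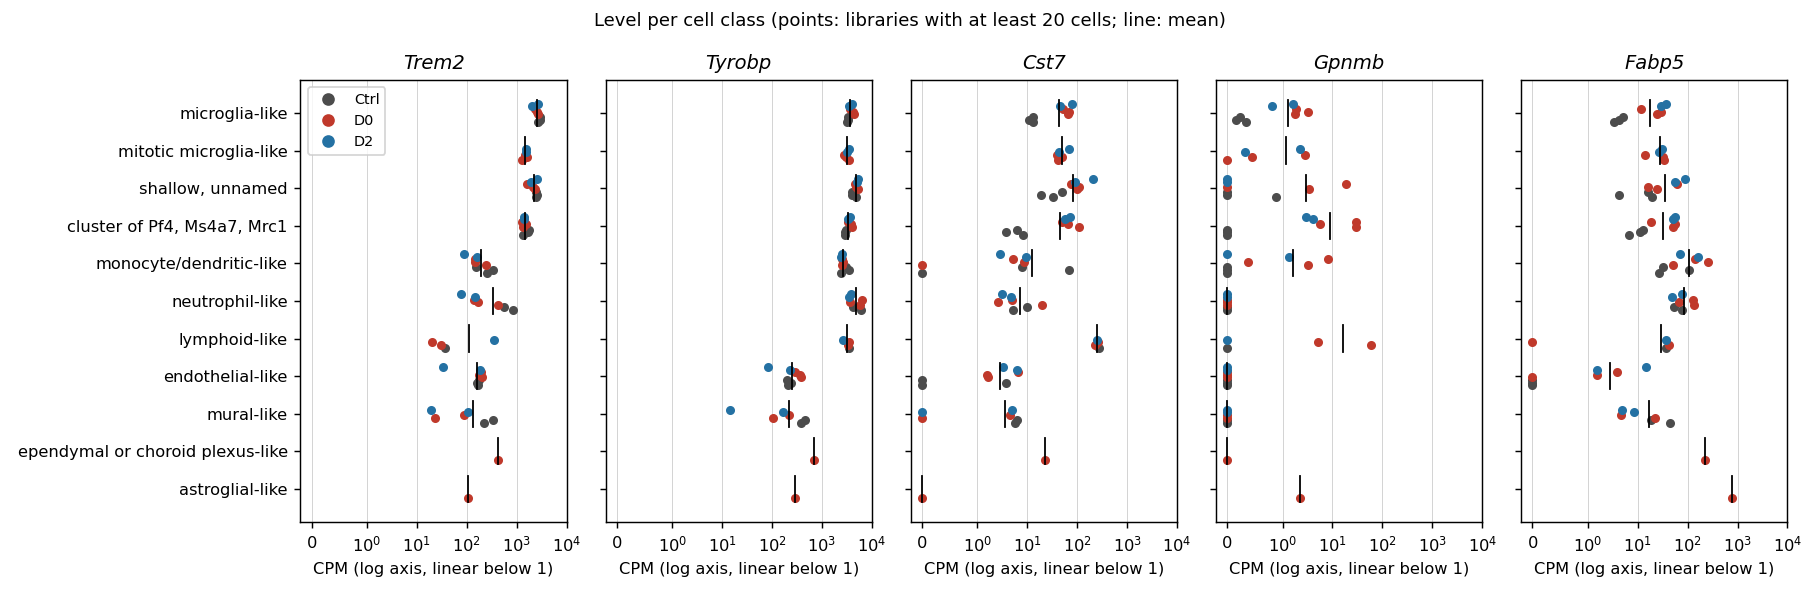
Level of each measured gene (horizontal axis, CPM on a log scale that is linear below 1) in each class of cells; each point is 1 library with at least 20 cells of the class, coloured by condition, and the line is the mean. Trem2 separated microglia-like cells and the cluster of Pf4, Ms4a7 and Mrc1 from the other named classes, Tyrobp was high in all blood-derived classes, and Cst7 was highest in lymphoid-like cells.

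The cluster led by Pf4, Ms4a7 and Mrc1 (1047 cells) matched the marker list of border-associated macrophages as a whole, but its cells changed with condition. Mrc1 was at 1028, 583 and 1154 CPM in Ctrl, 24.9, 13.3 and 46.3 in D0, and 41.4 and 21.6 in D2 while Pf4 was at 712 to 1368 CPM in Ctrl and 4.55 to 52.8 CPM in D0 and D2. A change within 1 kind of cell therefore cannot be told apart from a change in which cells the cluster held. Cst7 in it was at 8.20, 3.68 and 6.27 CPM in Ctrl, 106.7, 65.1 and 49.5 in D0, and 56.1 and 70.7 in D2. The groups did not overlap, and the log2 fold change was 3.65 ± 0.37 in D0 (adjusted p = 0.00012) and 3.39 ± 0.39 in D2 (adjusted p = 0.00066, edgeR over 8530 genes, of which 9.2% were called in D0 and 4.72% in D2). The Ctrl levels rested on 11, 2 and 6 UMIs, and the lowest lay within the spread of endothelial-like cells (2.88 ± 2.54 CPM). The size of these folds thus depends on Ctrl values near the floor. Fabp5 rose by 2.32 ± 0.42 in D0 (adjusted p = 0.00577) and 2.58 ± 0.44 in D2 (0.00735) on the log2 scale. Gpnmb had 0 UMIs in 332 Ctrl cells, 34, 16 and 28 UMIs in the D0 libraries, and 3 and 6 in D2. Against the limit of 3 UMIs over the Ctrl group, 1.06 CPM, it was at least 14.9-fold higher in D0 and at least 3.06-fold higher in D2, and it was called in D0 (adjusted p = 0.00711) but not in D2 (0.174, or 0.0497 without D0-2). It could pass the filter on low counts only through the D0 libraries, and 81 of its 87 UMIs in the cluster lay in 7 cells, 28 of them in 1, so the bounds rest on few cells and cover counting error only. Trem2 (-0.03 ± 0.18, adjusted p = 0.943) and Tyrobp (0.50 ± 0.16, adjusted p = 0.0713) were not called in D0.

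The difference between this cluster's response and that of microglia-like cells was tested within libraries. For Cst7 it was 1.21 ± 0.34 in D0 (log2, adjusted p = 0.0505) and 1.00 ± 0.37 in D2 (0.170), where 4.39% and 4.01% of 11907 genes were called. Both values rest on the few Ctrl UMIs of Cst7 in the cluster given above. No gene of the 5 was called, with differences of 0.13 and 0.23 for Trem2, 0.11 and 0.11 for Tyrobp and -0.32 and -0.44 for Fabp5. Leaving out D0-2, D0-3, D2-1 or D2-2 brought Cst7 in D0 past the threshold (adjusted p of 0.0146 to 0.0431), and leaving out any other library (0.0736 to 0.163) or the library block (0.28001) did not.

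In monocyte- and dendritic-like cells none of 7758 genes was called in D0 or D2 (0%; 911 and 869 had an unadjusted p under 0.05), and Fabp5 was not called (adjusted p = 0.365 in D0 and 0.622 in D2), at 27.3 to 108 CPM in Ctrl, 51.5, 256 and 143 in D0, and 160.3 and 71.4 in D2, which overlapped. Leaving out Ctrl-1 raised these counts to 252 and 284 genes. In neutrophil-like cells Trem2 was lower in D2, with a log2 fold change of -2.37 ± 0.47 (adjusted p = 0.0286), where 3.02% of 4563 genes were called, and was not called in D0 (-1.34, adjusted p = 0.234, with 0.0877% of genes called). Its level there was 828 and 566 CPM in Ctrl-2 and Ctrl-3, 427, 168 and 139 in D0 and 143 and 74.7 in D2. The class joined clusters that differed in Trem2. One, with a median of 2668 UMIs, held 438 ± 250 CPM (mean ± SD, 6 libraries with at least 20 of its cells). Another, with a median of 9158 UMIs, held 45.0 ± 34.9 CPM (4 libraries). The part of their mix in the fold of Trem2 was not tested. Ctrl-1 had 15 neutrophil-like cells and entered only with a lower minimum of 10 cells, when the call was lost (-1.88, adjusted p = 0.233). Without it, both Ctrl libraries named Cell Ranger 3.1.0 and every treated library 3.0.2. Treatment and version therefore cannot be separated here, and the part of the version was not tested. Summed microglia markers in these cells reached at least 5899.5 CPM in each Ctrl library. Their highest value was 3987.6 CPM with PLX5622 and 1360.8 CPM after the return to control diet. Beside this, P2ry12, a microglial gene, was found in the same cells at 115.7% and 95.6% of the UMIs of Trem2 in Ctrl-2 and Ctrl-3, 59.4%, 48.1% and 77.2% in D0, and 20% and 21.9% in D2. In microglia-like cells outside mitosis it was at 105.4% and 99.5% in Ctrl-2 and Ctrl-3, 39.0%, 42.1% and 65.5% in D0, and 30.01% and 25.8% in D2.

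Shallow barcodes held more Cst7 per UMI than microglia-like cells. The 2 shallow clusters, with a median of 1580 UMIs (2375 barcodes), stayed unnamed for their depth. They were not of 1 kind: 1 was led by Pf4 and Cd209f, and border-associated macrophage markers summed to 480 to 1356 CPM in the Ctrl shallow barcodes against 218 to 255.5 in Ctrl microglia-like cells. Their Trem2, 2241 ± 349 CPM, overlapped that of microglia-like cells. Their Cst7 was at 33.2, 18.7 and 50.3 CPM in Ctrl, 96.8, 107.0 and 73.4 in D0, and 88.9 and 203.6 in D2, in each library above the microglia-like cells of that library. As a percent of the Trem2 UMIs, Cst7 was 1.35, 0.743 and 2.04 in Ctrl, 4.14, 5.09 and 4.66 in D0 and 4.64 and 7.98 in D2, against 0.488, 0.367 and 0.435, then 2.50, 2.63 and 2.31, then 2.24 and 2.88 in microglia-like cells. The ratio of the 2 genes thus differed between classes of the same library. The Ctrl values of the shallow barcodes rest on 38, 9 and 22 UMIs of Cst7. Endothelial-like cells held 14 UMIs of Cst7 and 689 of Trem2 in all. These counts mix conditions, with at most 5 UMIs of Cst7 in a library. The part of free RNA in the shallow barcodes was not tested. The counts were uneven: 43 of the shallow barcodes had at least 3 UMIs of Cst7 and held 217 of its 474 UMIs. Adding these clusters to the microglia-like sums changed no call of the 5 genes. Binned by depth over all these barcodes, Cst7 averaged 64.6 ± 69.5 CPM at 500 to under 1000 UMIs, 56.4 ± 42.4 to under 2000, 35.2 ± 25.8 to under 5000, 39.6 ± 25.1 to under 10000 and 49.1 ± 31.1 up to 20000, bins that overlapped throughout. Trem2 was at 1453 ± 327 CPM in the shallowest bin and 2817 ± 247 at 2000 to under 5000 UMIs.

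**Figure D5:**
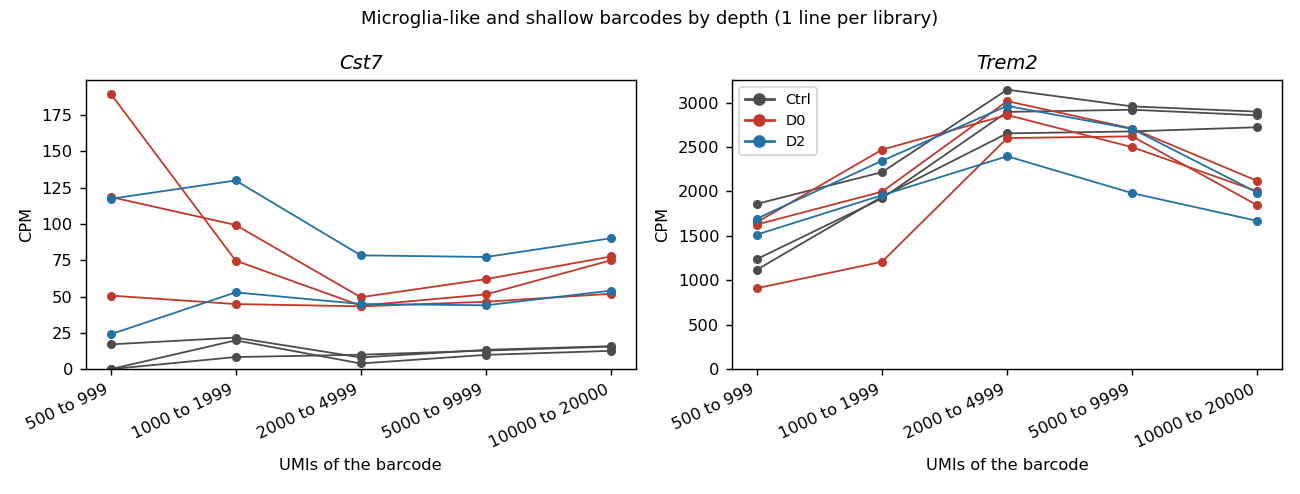
Level of Cst7 and Trem2 (vertical axes, CPM) in microglia-like and shallow barcodes by UMIs of the barcode (horizontal axis), with 1 line per library coloured by condition. The Ctrl libraries lay below the tested D0 and D2 libraries for Cst7 in every bin from 1000 UMIs on, and Trem2 was lowest in the shallowest bin of every library.

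Of 30 genes of TREM2 and ITAM signalling, 29 were tested, of which 2 rose and 4 fell in D0 (median log2 fold -0.06) and 1 rose and 4 fell in D2 (-0.15), shares close to those of all genes tested (19% called in D0 and 17% in D2). Syk, the kinase that TYROBP recruits, was at -0.13 (adjusted p = 0.591) in D0. Pik3cg, a catalytic subunit of PI3-kinase, fell by 0.75 in D0 and by 0.99 in D2 on the log2 scale. Inpp5d (SHIP1, a phosphatase that opposes PI3-kinase) fell by 0.38 and Dok1, an inhibitory adaptor, fell by 0.50 in D0, and neither was called in D2 (-0.38 and -0.46). Lat2, an adaptor, rose by 0.67 in D0 and was at 0.19 in D2. Of 19 tested adaptors and partner receptors with an ITAM or bound to TYROBP or a like adaptor, 4 rose in D0 (median 0.17) and 3 rose and 2 fell in D2, beside the same 19% and 17% of all genes.

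Of 35 further genes of the disease-associated program, 20 rose and none fell in D0 (median log2 fold 1.08) and 21 rose and none fell in D2 (median 0.77). Of all genes tested, 12.1% were called higher and 6.9% lower in D0, and 10.1% and 6.89% in D2. The largest rises were of Axl, a receptor kinase for dying cells, at 3.43 in D0 and 3.46 in D2, Lgals3 at 3.18 and 3.77, and Cybb, a subunit of the NADPH oxidase, at 3.01 and 3.45, with adjusted p of at most 0.00135 in D0 and 0.00085 in D2 (edgeR). Some members of the list stayed under the threshold in D0, such as Ctsd (0.10) and Cd9 (0.12). The list was written with knowledge of earlier results of these libraries, so its counts are no independent evidence of a direction. D2 against D0 gave no call in any list.

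The counts of the next lists stand beside 12.1% of all genes called higher and 6.9% lower in D0, and 10.1% and 6.89% in D2. The lists of cathepsins, lipid genes and lysosomal partners share genes with the disease-associated list above, among them Cstb, Lpl, Plin2, Lgals3 and Cd63. Their counts are therefore not separate from those of that list. Of 14 tested cystatins and cathepsins, 4 rose and 1 fell in D0, and 4 rose and 2 fell in D2. Cstb, the cytosolic cystatin B, rose by 1.09 and 1.08, Ctsh, a lysosomal cathepsin, rose by 0.72 and 0.73, Ctsc (cathepsin C, a target of cystatin F) rose by 0.68 in D0 (adjusted p = 0.0497) and was at 0.37 in D2, and Ctso fell by 0.52 and 0.81. Of 17 tested genes of fatty acid binding and lipid droplets, 6 rose and 1 fell in D0 and 7 rose and 2 fell in D2. Lpl, the lipoprotein lipase, rose by 2.43 and 2.39, Plin2, which coats lipid droplets, rose by 0.97 and 1.37, and Mgll, a lipase of monoacylglycerols, fell by 1.06 and 1.17. Of 14 tested MITF/TFE factors and lysosomal partners of Gpnmb, 5 rose and 1 fell in D0, and 4 rose in D2. Cd63, a lysosomal tetraspanin, rose by 0.74 and 1.07, Sqstm1, the autophagy receptor p62, rose by 0.66 in D0 and was at 0.53 in D2 (adjusted p = 0.113), and Tfe3, a factor of this family, fell by 0.38 in D0 and was at -0.33 in D2 (adjusted p = 0.108). Among 10 homeostatic genes, 5 fell in D0 and 8 in D2, with P2ry12 falling by 1.14 and 2.13 and P2ry13 by 1.54 and 2.38.

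The genes whose levels ran most like each member were found over 64 sums of 11 classes and 8 libraries, among 12442 genes, by Pearson's r of log2(CPM + 10). The points share libraries, depth and the classes themselves, so r is a description. For Trem2 they included C1qb (r = 0.988) and C1qc (0.987), and for Tyrobp they were Fcer1g (0.979), Fam49b (0.953) and Hcls1 (0.951). Cst7 had weaker ones, Ly9 (0.791), Rasal3 (0.747) and Cd79b (0.746), as had Gpnmb with Avil (0.747), Pdcd1 (0.647) and Areg (0.606), and Fabp5 with Atp6v0e (0.729), Xylt1 (0.689) and Lgals3 (0.682). The sums behind r include values set mostly by 1 cell, such as Gpnmb in lymphoid-like cells and Cst7 in monocyte- and dendritic-like cells of Ctrl-2. Their part in r was not tested. Among the members themselves Trem2 and Tyrobp had r = 0.595, Cst7 and Tyrobp 0.537, Cst7 and Gpnmb 0.416, and Cst7 and Fabp5 0.0987.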

How the data were processed

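The authors deposited 1 table of UMI counts per library, raw whole-number counts with no normalization, made with Cell Ranger (3.1.0 in the submitters' processing notes, 3.0.2 or 3.1.0 in the file headers) against mm10. Everything below was computed from these deposited counts. Barcodes were kept between 500 and 20000 UMIs if 200 genes or more were detected and mitochondrial UMIs did not exceed 10%. They were clustered with scanpy 1.11.5 (3000 variable genes without the members and lists, 10 principal components, 20 neighbours, Leiden resolution 0.6). Classes were named from fixed marker lists by rules settled after the clusters had been seen. Doublets were not removed, because the 0.194% of cells that Scrublet marked showed that it had not worked. Counts were summed per class and library (at least 20 cells) and tested with edgeR 4.0.16 (R 4.3.3, filterByExpr, TMM, quasi-likelihood, Benjamini-Hochberg, threshold 0.05), with DESeq2 1.42.0 as an alternative. The difference between classes was a class by condition term with the library as a block. Levels are CPM over all UMIs of the sum, and intervals are 95%. On simulated data for D0 vs Ctrl with 12361 genes, 97.2% of 72 genes changed 2-fold and 42.1% of 57 changed 1.5-fold were recovered. Recovery was not tested apart for scarce genes such as Gpnmb.

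D2-3 was left out of the tests, as in the study. Libraries are the replicates, and D0 and D2 libraries pooled brains. Replicate numbers were taken from the labels, which do not say that a number marks a shared batch. Deviations of same-numbered libraries from their group means correlated at 0.535, 0.333 and 0.267 between Ctrl and D0 over 12361 genes, at 0.0109 and 0.0774 between Ctrl and D2, and at -0.199 and 0.307 between D0 and D2. The members and gene lists were chosen with earlier results of these data known. Genes named from a list were the 3 called ones with the largest change at 20 CPM or more, and others named were chosen after their values were seen. A gene that these rules name is not reported here.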

Additional observations from a re-analysis of the deposited data

Results flagged for a closer look

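D2-3, the D2 library outside the tests, held Cst7 at 44.1 CPM and Fabp5 at 21.2 CPM in its microglia-like cells, both above the highest Ctrl library (13.1 and 4.98 CPM). They drew attention as a signal in data that no main comparison used, although some alternatives included them. The same cells held Trem2 at 493 CPM, below every other library, and 671 of the 712 were placed in mitotic clusters. Cells of D2-3 took the commonest cluster among their nearest neighbours in the tested libraries. With such levels the name microglia-like is uncertain for them. Genes of the marker lists of other cells also differed from the tested libraries in them. S100a4, of the monocyte list, was at 34.7 CPM (0.983 to 20.4 in the 8 tested libraries). Csf3r, of the neutrophil list, was lower at 24.4 CPM (131.2 to 252.3), as was Cd79b, of the lymphoid list, at 9.85 CPM (34.8 to 44.2). Both were found in the microglia-like cells of every tested library, Cd79b as most of the lymphoid sum. Their levels therefore cannot be read as an amount of other cells. The part of other cells in the levels of Cst7 and Fabp5 was not tested.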

How the results depend on the processing

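Cst7 and Fabp5 kept their D0 and D2 calls in all 29 and 28 alternatives, with log2 folds of 2.27 to 2.59 and 1.98 to 2.76 for Cst7 and 2.34 to 3.00 and 2.74 to 3.38 for Fabp5. Gpnmb, which passed the filter only through treated libraries, ranged over 2.18 to 4.45 in D0, over 1.34 to 3.27 in D2, and lost its D2 call with a term for the Cell Ranger version (1.94, adjusted p = 0.137), without D2-2 (1.61, 0.136), with D2-3 (2.06, 0.0539) and without an upper UMI limit (1.34, 0.0953). Tyrobp kept its D0 call in 20 of 29 (0.25 to 0.56). Trem2 was called in none (-0.30 to 0.06 in D0, -0.65 to -0.10 in D2). Its D0 value turned to 0.0613 with the version term, 0.0388 without mitotic clusters and 0.0287 without them and with D2-3. Cst7 in D2 vs D0 turned to 0.0318 at Leiden resolution 1.0, 0.0378 with total UMIs, 0.0343 with shallow clusters and 0.0392 without mitotic clusters and with D2-3. Genes called in microglia-like cells, 2348 in D0, were 1391 with the version term, 447 with D2-3, 1294 in thinned cells, 1058 without mitotic clusters, 402 without them and with D2-3, and 3763 with total UMIs (1123 higher and 2640 lower, against 1495 and 853). In D2, 2103 became 1048, 1144, 1292, 1123 and 711 in that order, and 2396 with total UMIs (1049 higher and 1347 lower, against 1251 and 852). D2 vs D0 gave 24 with DESeq2 and 26 with no filter on low counts. Leaving out 1 library gave 1156 (without D0-2) to 2423, 1022 (without D2-2) to 2861 (without Ctrl-1), and 0 to 1. In the Pf4 cluster it gave 213 (without Ctrl-3) to 1350 (without D0-1) in D0 and 89 (without Ctrl-3) to 744 in D2, in monocyte- and dendritic-like cells 0 to 252 and 0 to 284, in neutrophil-like cells 0 to 4 and 93 to 138, and for the difference between classes 287 to 847 and 253 to 709. In microglia-like cells 3 to 4 measured genes were then called in D0, where the main test called 19% of all genes. Gpnmb is in that count, so it is no measure of how well the calls hold. Leaving out 1 library also moved Cst7 in D2 vs D0 over -0.50 to 0.29, Trem2 in the Pf4 cluster in D0 over -0.16 to 0.0537 and Tyrobp in monocyte- and dendritic-like cells in D0 over -0.18 to 0.0288. With D2-3 the Pf4 cluster had 340 calls in D0, and in D2 Tyrobp was at 0.0141 in monocyte- and dendritic-like and 0.11 in neutrophil-like cells. A minimum of 10 cells left 0 and 0 calls in neutrophil-like cells. Without a library block, the difference between classes had 196 and 161 calls. The share of cells with Trem2 in D0 was 0.226 percentage points above Ctrl when not thinned, and that with Tyrobp in D2 was -0.363 from Ctrl when not thinned and -0.594 with D2-3. The causes were not tested. With the replicate number as a block, D0 had 2665 calls, D2 2040 and D2 vs D0 0, or 3380 with only D0 and Ctrl. The pairing changed no call of the 5 genes (Tyrobp in D0 0.45, adjusted p = 0.0178, and Gpnmb in D2 2.21, adjusted p = 0.0232, edgeR), and Ctrl-3 correlated more with D0-2 (0.366) than with D0-3. Total UMIs, shallow clusters, leaving out mitotic clusters and the block over 2 groups were chosen after the data had been seen. In the Pf4 cluster Gpnmb fell under the filter without D0-1, D0-3, D2-1 or D2-2 or with D2-3, and has no value there. UMI depth limits Gpnmb most, with 3 to 91 UMIs a library.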
